A study of Mus musculus with 6 samples.

Results

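The 3 TAM receptors, Axl, Mertk and Tyro3, and their 2 ligands, Gas6 and Pros1, were followed through the tumors of treated mice in macrophages, dendritic cells, tumor cells and endothelial cells. They are 5 of the 34187 genes in the deposited single-cell matrices, and they were listed by name, with a fall of Axl in dendritic cells already known when they were chosen. For that reason dendritic cell values are given below as a description without a test, whereas the macrophage, tumor and endothelial comparisons were tested across all genes.

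TAM receptors are receptor tyrosine kinases that bind phosphatidylserine on dying cells through the bridging proteins Gas6 and protein S (Pros1). In macrophages they drive the engulfment of apoptotic cells, and in macrophages and dendritic cells they dampen inflammatory signalling. Mertk is known as the receptor of resting and tissue macrophages, Axl is known to be induced by inflammatory signals and to be used by many carcinoma cells, and Gas6 engages all 3 receptors whereas Pros1 engages Mertk and Tyro3.

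The study asked how an interleukin-10 fusion protein acts on the cells of a pancreatic tumor. Mice bearing 6694c2vTRP1 tumors, a murine pancreatic ductal adenocarcinoma line grown under the skin, received the vehicle PBS, mono-IL10 (26 µg per mouse) or IL10/2-Trikine (30.6 µg per mouse) in 2 doses from day 8, and tumors were collected on day 14. Cells enriched on CD45+ beads were sequenced as 1 library per treatment, with the mice of a treatment pooled and told apart by hashtag antibodies. Each library held 5 hashtags, taken here as 5 mice, although the number of PBS mice is not stated, and the study's methods name C57BL/6 mice of both sexes for tumors of this line, with no split by sex given for these libraries. Because every treatment is a single library, treatment and library cannot be told apart, and p-values measure the spread between mice within a library. The tumor grew from a cultured line in a subcutaneous site, so every group shares that model.

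The libraries held 30528 to 55504 barcodes with 364814102 to 515236552 gene UMIs (unique molecular identifiers, counts of single RNA molecules). After filtering, 24060 to 46104 cells per library remained, with median depths of 9474, 11643.5 and 6399 UMIs for PBS, mono-IL10 and IL10/2-Trikine. Pairs of libraries shared 408 to 700 barcode sequences. Clusters named from marker genes gave, in PBS, mono-IL10 and IL10/2-Trikine, 8532, 6292 and 5781 macrophage or monocyte-like cells, 383, 168 and 143 dendritic cell-like cells, 11738, 8354 and 24105 tumor epithelial-like cells, and 407, 155 and 493 endothelial-like cells. In each library 20.1% to 25.3% of cells stayed unnamed. Defining markers were present where they belong: pooled C1qa was 2119 to 2585 CPM (the UMI count of a gene in the summed cells, scaled to the same total for every sum) in macrophages, Cdh5 1163 to 1241 CPM in endothelial cells, and Flt3 168 to 216 CPM in dendritic cells. In tumor cells the keratin Krt8 was at 1899 to 2257 CPM, but Epcam was only at 16 to 20 CPM and Cldn4 at 6 to 13 CPM. Tumor and endothelial cells are present despite the CD45+ beads, so their numbers reflect what passed that enrichment.

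To place the genes, the 250 bases upstream of the start of Axl, the member with the largest change in macrophages, and of Mertk and Gas6, the members that rose with mono-IL10, are printed from RefSeq for GRCm38.p6, an earlier build than the GRCm39 reference of the counts. The windows are chr7:25788734-25788983 on the minus strand for Axl, chr2:128698665-128698914 on the plus strand for Mertk and chr8:13494536-13494785 on the minus strand for Gas6. They lie upstream of the annotated start, outside the transcribed gene, and capitals mark matches to GGGCGG, the GC box, on either strand.
Axl: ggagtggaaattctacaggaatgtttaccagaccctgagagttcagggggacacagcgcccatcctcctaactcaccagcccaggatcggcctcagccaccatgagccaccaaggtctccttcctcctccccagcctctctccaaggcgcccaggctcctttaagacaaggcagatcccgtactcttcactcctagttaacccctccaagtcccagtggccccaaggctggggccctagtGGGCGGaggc
Mertk: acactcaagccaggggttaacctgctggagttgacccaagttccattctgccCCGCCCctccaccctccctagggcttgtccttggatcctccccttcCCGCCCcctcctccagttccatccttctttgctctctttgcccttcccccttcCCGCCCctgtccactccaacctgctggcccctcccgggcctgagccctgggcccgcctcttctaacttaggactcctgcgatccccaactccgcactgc
Gas6: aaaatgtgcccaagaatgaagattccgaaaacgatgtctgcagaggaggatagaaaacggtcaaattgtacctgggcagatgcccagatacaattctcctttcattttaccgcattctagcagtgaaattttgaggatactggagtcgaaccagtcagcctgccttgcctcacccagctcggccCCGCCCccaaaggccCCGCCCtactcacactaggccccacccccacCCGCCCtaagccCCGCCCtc
The GC box occurred 1 time in the Axl window, 3 times in the Mertk window and 4 times in the Gas6 window, and 32.7% of 32851 mouse promoter windows of that length held at least 1. Neither TTCNNNGAA, the palindrome that STAT factors recognise, nor TGANTCA, the AP-1 motif, occurred in these 3 windows. Of the other members, the Pros1 window held 1 match to TTCNNNGAA and the Tyro3 window none, and neither held TGANTCA. All promoters held them at shares of 7.02% and 6.75%. A match is a run of letters and does not show a bound site, and its absence says nothing about the factor.

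Across the 4 classes the receptors and ligands differed in where their mean level was highest. Averaged over the mice of all treatments, Axl was at 150 ± 67.3 CPM in macrophages (SD, n = 15), 78.1 ± 8.71 CPM in tumor cells (SD, n = 15), 31.5 ± 28.8 CPM in dendritic cells (SD, n = 13 mice with at least 10 cells) and 9.72 ± 5.71 CPM in endothelial cells (SD, n = 15). Neighbours in this order overlapped over all mice, since macrophage Axl ran from 71.6 to 258 CPM and tumor Axl from 61.0 to 91.6 CPM, and 1 mono-IL10 mouse had less Axl in macrophages than in tumor cells (ratio 0.928). In PBS mice the dendritic range of 46.6 to 80.5 CPM overlapped the tumor range of 73.8 to 91.6 CPM. Mertk was at 197 ± 31.7 CPM in macrophages, 20.6 ± 11.7 CPM in endothelial cells, 4.67 CPM in dendritic cells and 3.48 CPM in tumor cells. Gas6 had its highest mean of these classes in macrophages (76.8 ± 19.6 CPM, SD, n = 15), with 9.13 ± 6.66 CPM in endothelial cells, 2.04 CPM in dendritic cells and 1.25 CPM in tumor cells. Pros1 ran in another order, with 147 ± 22.7 CPM in endothelial cells, 97.2 ± 5.87 CPM in tumor cells, 28.2 ± 4.56 CPM in macrophages and 5.1 CPM in dendritic cells (SD, n = 15 for the first 3). Tyro3 was low in all 4 classes, and its highest mean of these was 3.21 CPM in tumor cells. As a background, the 2082 annotated T and NK cells held Axl at 8.43 CPM (95% exact Poisson interval 6.53 to 10.7), Mertk at 1.76 CPM (0.963 to 2.95), Tyro3 at 2.14 CPM (1.25 to 3.42), Gas6 at 1.13 CPM (0.518 to 2.15) and Pros1 at 4.15 CPM (2.86 to 5.83). The means of endothelial Axl, tumor and dendritic Gas6 and dendritic Pros1 lay within those intervals and are not read as expression. Tumor Tyro3 also lay within its interval, but mean Tyro3 was 0.107 CPM in macrophages and 0.463 CPM in endothelial cells. The T and NK cell level of Tyro3 is thus not a floor for every class, and tumor Tyro3 is read only as low. Fibroblast-like cells, which were not among the classes chosen, held Axl at 104 to 177 CPM, Gas6 at 41.0 to 149 CPM and Pros1 at 184 to 258 CPM per mouse.

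**Figure D1:**
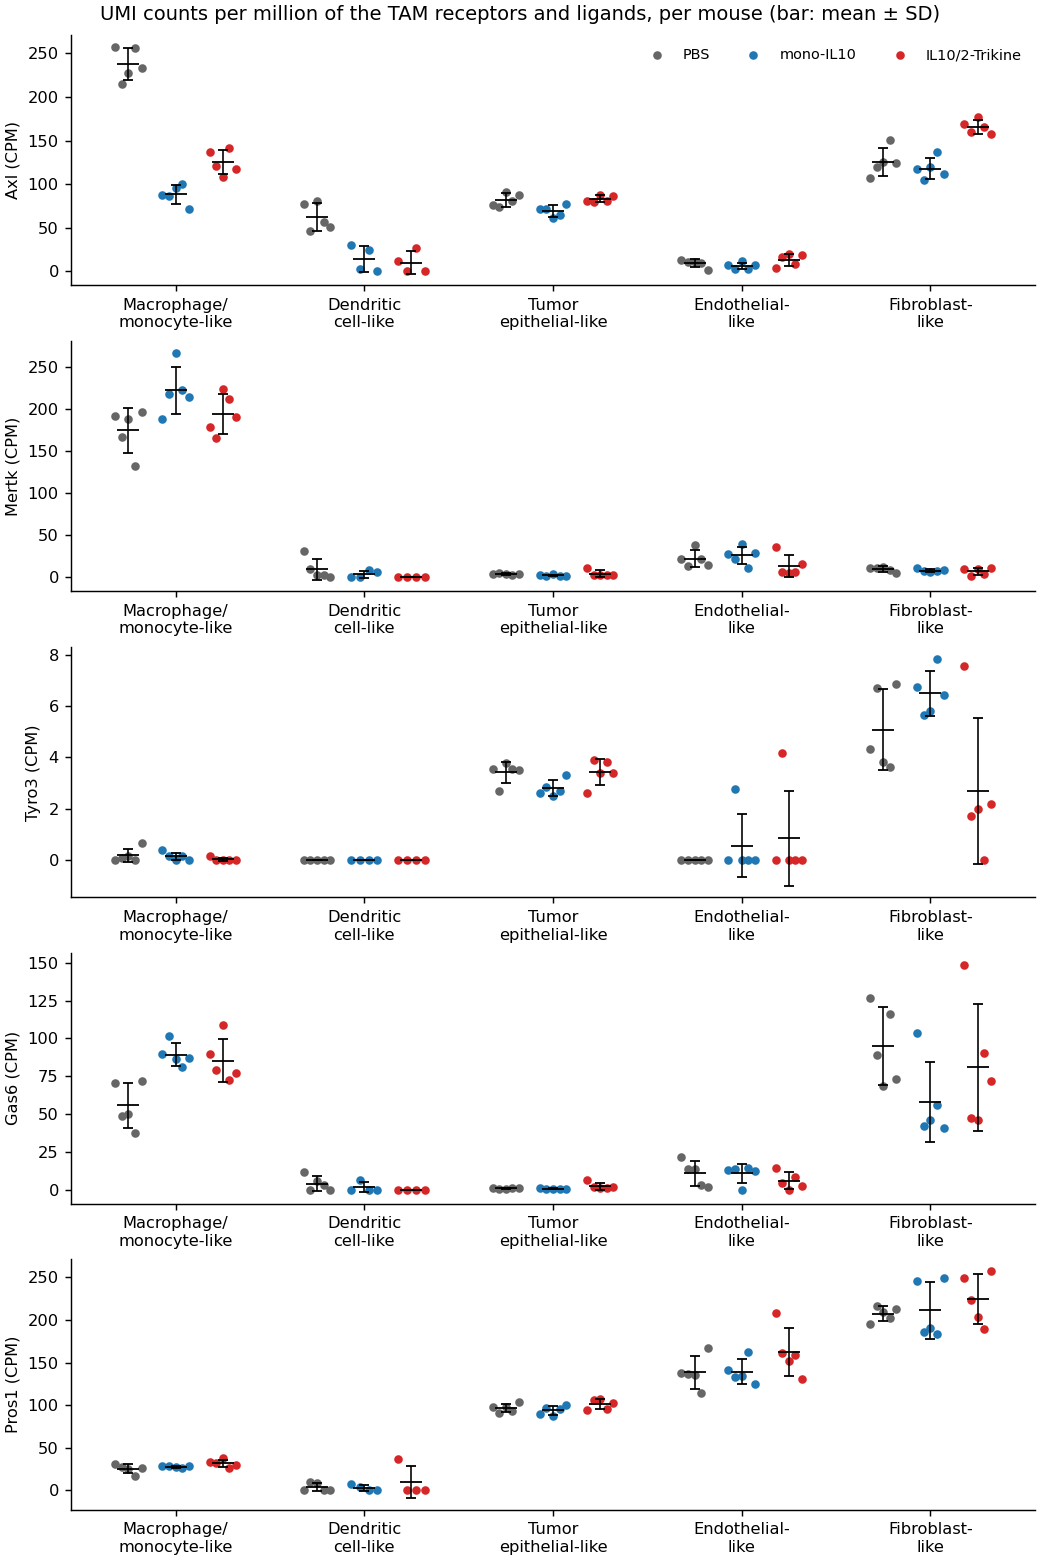
Levels of the 5 genes in CPM on the vertical axis, for each mouse with at least 10 cells of a class (points), by cell class on the horizontal axis and coloured by treatment, with bars for the mean ± SD of each group. Macrophage Axl separates by treatment (215 to 258 CPM in PBS, 71.6 to 101 CPM in mono-IL10 and 108 to 141 CPM in IL10/2-Trikine), whereas Pros1 is highest in endothelial and fibroblast-like cells in every treatment.

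Axl fell in macrophages under both treatments, and further under mono-IL10 than under IL10/2-Trikine. In the PBS mice macrophage Axl was 258, 215, 228, 256 and 233 CPM. In the mono-IL10 mice it was 87.6, 86.2, 95.3, 101 and 71.6 CPM, and in the IL10/2-Trikine mice 137, 121, 108, 141 and 118 CPM. No mouse of any group overlapped another group: all PBS mice were highest, all mono-IL10 mice lowest, and the IL10/2-Trikine mice lay between. The log2 fold change was -1.34 ± 0.09 (SE) for mono-IL10 against PBS (adjusted p = 3.16e-09), -0.93 ± 0.09 for IL10/2-Trikine against PBS (adjusted p = 1.46e-06) and 0.41 ± 0.09 for IL10/2-Trikine against mono-IL10 (adjusted p = 0.00567), all by edgeR's quasi-likelihood test with Benjamini-Hochberg adjustment over 12338 genes, n = 5 mice per group. These calls stood among many: 26.5% of tested genes passed in mono-IL10 against PBS, 18.3% in IL10/2-Trikine against PBS and 13.9% in IL10/2-Trikine against mono-IL10.

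At least 1 Axl UMI was found in 59.7% of PBS, 33.6% of mono-IL10 and 29.6% of IL10/2-Trikine macrophages, at median depths of 4985, 6205.5 and 2810 UMIs per cell. At an equal depth of 3000 UMIs drawn from each cell these became 45.7%, 18.6% and 31.5%, after 1665, 728 and 3270 shallower cells had been left out. The order of the treated groups at equal depth was thus that of the CPM and not that of the unthinned shares. In T cells, which should lack the gene, the thinned shares were 9.26%, 2.81% and 3.45%, and their median depths before thinning were 2526, 3367 and 2298 UMIs.

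Mertk moved the opposite way under mono-IL10. Macrophage Mertk was 191, 166, 188, 132 and 196 CPM in PBS, 189, 218, 267, 223 and 215 CPM in mono-IL10, and 179, 165, 224, 212 and 191 CPM in IL10/2-Trikine. The ranges overlapped, with 1 mono-IL10 mouse inside the PBS range. Mertk rose in mono-IL10 against PBS by a log2 fold change of 0.43 ± 0.11 (edgeR adjusted p = 0.00483), and the difference in IL10/2-Trikine against PBS was 0.12 ± 0.11 (adjusted p = 0.487). For IL10/2-Trikine against mono-IL10 it was -0.31 ± 0.11 (adjusted p = 0.0683). That last value passed the threshold with cells of at least 2000 genes (-0.47, adjusted p = 0.00717) and with no filter on low counts (-0.34, adjusted p = 0.0175), and also without PBS mouse 4 (adjusted p = 0.0279) or without mono-IL10 mouse 1 (adjusted p = 0.0364). Thinned to 3000 UMIs, the share of macrophages with a Mertk UMI was 32.6%, 38.1% and 34.8% in PBS, mono-IL10 and IL10/2-Trikine.

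Gas6, the ligand of all 3 receptors, rose in macrophages under both treatments. It was 70.3, 48.7, 50.2, 37.3 and 72.2 CPM in PBS, 89.7, 102, 86.6, 80.8 and 87.3 CPM in mono-IL10, and 89.7, 78.8, 109, 72.8 and 76.8 CPM in IL10/2-Trikine. Every treated mouse was above every PBS mouse, while the 2 treated groups overlapped. The log2 fold change was 0.76 ± 0.13 for mono-IL10 against PBS (edgeR adjusted p = 0.00022), 0.59 ± 0.14 for IL10/2-Trikine against PBS (adjusted p = 0.00605) and -0.18 ± 0.14 for IL10/2-Trikine against mono-IL10 (adjusted p = 0.448). The IL10/2-Trikine call rested on which cells were counted, since it was 0.39 (adjusted p = 0.0543) without the cluster led by Dcstamp, Ear2, Ccl17 and Mgl2, and 0.16 (adjusted p = 0.658) in cells with at least 2000 genes. In those deeper cells Gas6 was lower in IL10/2-Trikine than in mono-IL10 (-0.64, adjusted p = 0.0115).

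Pros1 stayed close between groups in macrophages, at 16.9 to 31.2 CPM in PBS, 26.0 to 28.9 CPM in mono-IL10 and 26.6 to 37.7 CPM in IL10/2-Trikine. Its log2 differences were 0.20 ± 0.11 for mono-IL10 against PBS (edgeR adjusted p = 0.199), 0.30 ± 0.12 for IL10/2-Trikine against PBS (adjusted p = 0.1001) and 0.10 ± 0.12 for IL10/2-Trikine against mono-IL10 (adjusted p = 0.670). The second of these passed without PBS mouse 1 (0.37, adjusted p = 0.0468) and with more starts of the clustering (0.35, adjusted p = 0.0409). Tyro3 had 7, 7 and 1 UMIs in all macrophages of the mice of PBS, mono-IL10 and IL10/2-Trikine and was not tested.

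**Figure D2:**
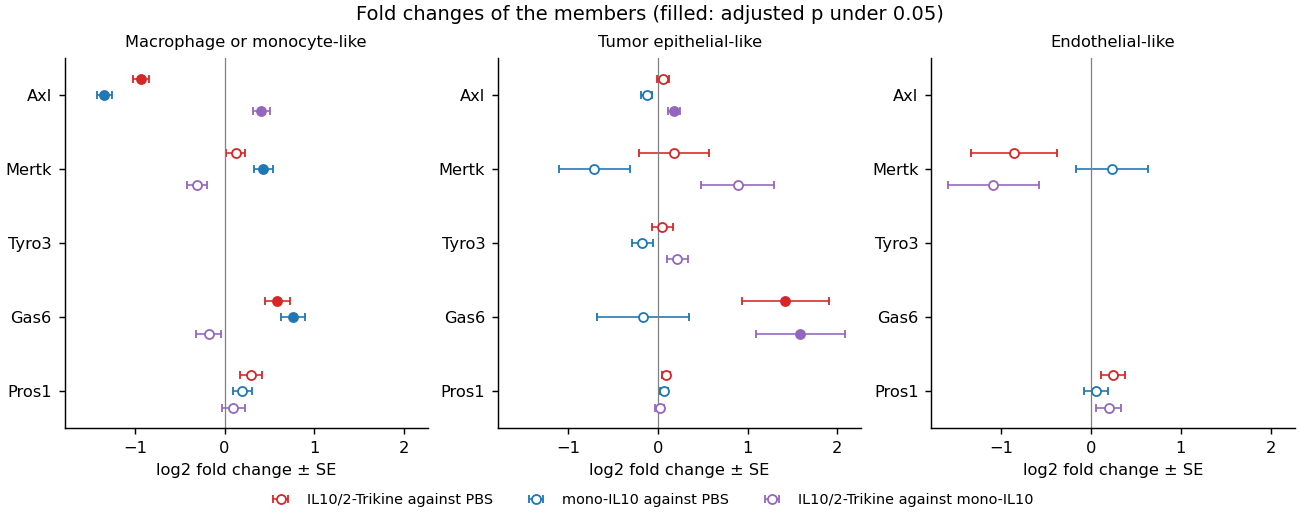
Log2 fold changes with their standard errors on the horizontal axis for each of the 5 genes (rows) in macrophages, tumor cells and endothelial cells (panels), coloured by comparison and filled where the edgeR adjusted p is under 0.05. Macrophage Axl is at -1.34, -0.93 and 0.41, macrophage Gas6 at 0.76 and 0.59 against PBS, and the wide error of tumor Gas6 belongs to a gene of 1.25 CPM on average.

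A pair of ratios within the same macrophages, chosen after these values were seen, put receptors and ligands side by side. The ratio of Axl CPM to Mertk CPM was 1.40 ± 0.313 for PBS mice, 0.4004 ± 0.0574 for mono-IL10 mice and 0.652 ± 0.111 for IL10/2-Trikine mice (SD, n = 5 each). On the log2 scale it differed by -1.79 for mono-IL10 against PBS, -1.09 for IL10/2-Trikine against PBS and 0.70 for IL10/2-Trikine against mono-IL10, given with no test because the ratio was chosen from these values. The ratio of Gas6 to Pros1 averaged 2.20 for PBS, 3.22 for mono-IL10 and 2.68 for IL10/2-Trikine. Its log2 differences were 0.56 for mono-IL10 against PBS, 0.30 for IL10/2-Trikine against PBS and -0.27 for IL10/2-Trikine against mono-IL10, also with no test. The values of 2 different genes in CPM also carry how well each is captured, so only the change of a ratio between groups can be read.

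**Figure D3:**
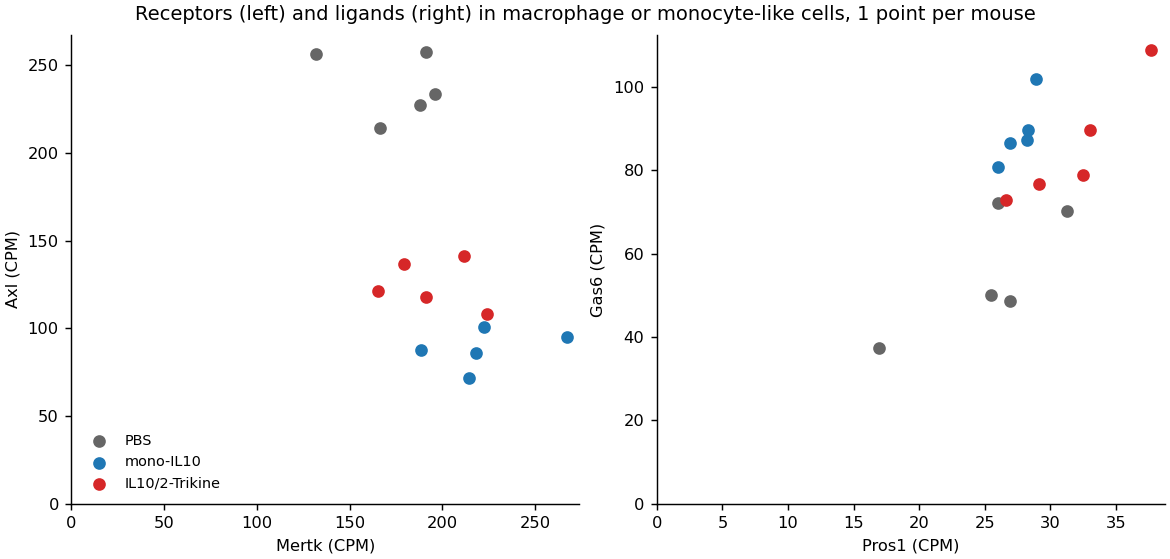
Macrophage levels per mouse in CPM (n = 5 mice per treatment, coloured), with Axl against Mertk in 1 panel and Gas6 against Pros1 in the other. PBS mice sit at 215 to 258 CPM of Axl, apart from the treated mice at 71.6 to 141 CPM, and all treated mice lie at 72.8 CPM of Gas6 or above.

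The macrophage class was not made of the same clusters in each treatment. The cluster led by Dcstamp, Ear2, Ccl17 and Mgl2 held 12.6% of PBS macrophages against 3.04% and 2.66% of mono-IL10 and IL10/2-Trikine macrophages, the cluster led by Ccl7, Ccl4 and Ccl3 held 11.9%, 3.40% and 3.94%, and the cluster led by Itga9, Cd74 and H2-Aa held 11.9%, 4.59% and 2.75%. In mono-IL10 the largest were the cluster led by Ccl8, Nrg1 and Folr2 (2.12% of PBS, 15.5% of mono-IL10 and 9.86% of IL10/2-Trikine macrophages) and the cluster led by Pdpn, Tnf and Il10 (3.65%, 12.98% and 3.72%). In IL10/2-Trikine the largest was a cluster led by H2-Aa and Cd74 (5.68%, 9.04% and 12.3%). The clusters were drawn from the same cells and differ in the genes of interest, so their sizes are given as a description.

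Axl was also compared within clusters. Of 16 macrophage clusters, 14 had enough mice to be fitted. Axl was lower in mono-IL10 than in PBS in 14 of 14, with a median log2 fold change of -1.12 and a range of -2.77 to -0.75, and 13 of these passed the threshold, where 2.64% to 9.49% of all genes did so per cluster and 6.50% over the clusters together. In IL10/2-Trikine against PBS it was lower in 14 of 14, from -1.12 to -0.06, with 7 past the threshold against a background of 1.03% to 7.01% and 2.91% together. In IL10/2-Trikine against mono-IL10 it was higher in 14 of 14, from 0.01 to 2.19, with 3 past the threshold against 0% to 1.60% and 0.531% together. The clusters come from the same mice and are not independent of each other.

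The 3 clusters with a call in IL10/2-Trikine against mono-IL10 are named by their leading genes. In the cluster led by Retnla, Ccr2 and Ear2, mean Axl was 261 CPM in PBS, 41.6 CPM in mono-IL10 and 165 CPM in IL10/2-Trikine, a log2 fold change between the treated groups of 2.19 (edgeR adjusted p = 0.000117). Its pooled C1qa was 739 CPM and Cd209a 24.0 CPM, against 1330 and 10.4 CPM in the cluster led by Dcstamp, Ear2, Ccl17 and Mgl2. That cluster had more H2-Ab1 (5398 against 4634 CPM) and Ccr7 (100 against 15.9 CPM). In the cluster led by Ccl24, Ppbp and Arg1 the means were 64.3, 24.3 and 63.8 CPM, and the change was 1.28 (adjusted p = 0.00295). In the cluster led by Ccl8, Nrg1 and Folr2 they were 164, 72.7 and 115 CPM, and the change was 0.59 (adjusted p = 0.0350).

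Axl and Gas6 peaked in different macrophages. PBS Axl was highest, at 332 CPM, in the cluster led by Cd72, Cx3cr1 and Hpgds and lowest, at 53.8 CPM, in the cluster led by Cd163, Ccl8, Cbr2, Folr2 and Lyve1, genes of tissue-resident macrophages. That same Cd163 cluster had the highest Gas6, at 365 CPM in PBS, 288 CPM in mono-IL10 and 258 CPM in IL10/2-Trikine, and Mertk at 374, 381 and 349 CPM. By contrast the Dcstamp and Mgl2 cluster held Axl at 296, 129 and 191 CPM with Gas6 at 1.72 and 1.40 CPM in PBS and mono-IL10 and no Gas6 UMI in IL10/2-Trikine. The Cd163 cluster made up 2.48% of PBS, 7.45% of mono-IL10 and 8.84% of IL10/2-Trikine macrophages. Class-wide Gas6 was also above PBS in both treatments, whereas class-wide Mertk was called against PBS in mono-IL10 only. The part of these shares in class-wide Gas6 and Mertk was not tested. Within clusters, 2.64% to 9.49% of all genes per cluster were called in mono-IL10 against PBS and 1.03% to 7.01% in IL10/2-Trikine against PBS. Between the treated groups 0% to 1.60% were called. Gas6 in mono-IL10 against PBS was higher in 8 of the 11 clusters tested and called in 4 (0.71 to 1.22 on the log2 scale). In IL10/2-Trikine against PBS it was higher in 8 and lower in 3, and called in 1, the cluster led by H2-Aa and Cd74 (1.01, edgeR adjusted p = 0.0499). There 4 clusters had an unadjusted p under 0.05, among them the Cd163 cluster, where Gas6 was lower (-0.49, edgeR adjusted p = 0.111). For Mertk, mono-IL10 against PBS gave 12 clusters higher and 2 lower with 4 calls (0.58 to 0.90), and IL10/2-Trikine against PBS gave 7 and 7 with no edgeR call and 4 at an unadjusted p under 0.05. In IL10/2-Trikine against mono-IL10 Mertk was lower in 13 of 14 clusters (median -0.44), again with no edgeR call and with 8 at an unadjusted p under 0.05. Pros1 was called in none of 11 clusters in any comparison by edgeR, with 1, 3 and 0 clusters at an unadjusted p under 0.05 in IL10/2-Trikine against PBS, mono-IL10 against PBS and IL10/2-Trikine against mono-IL10.

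**Figure D4:**
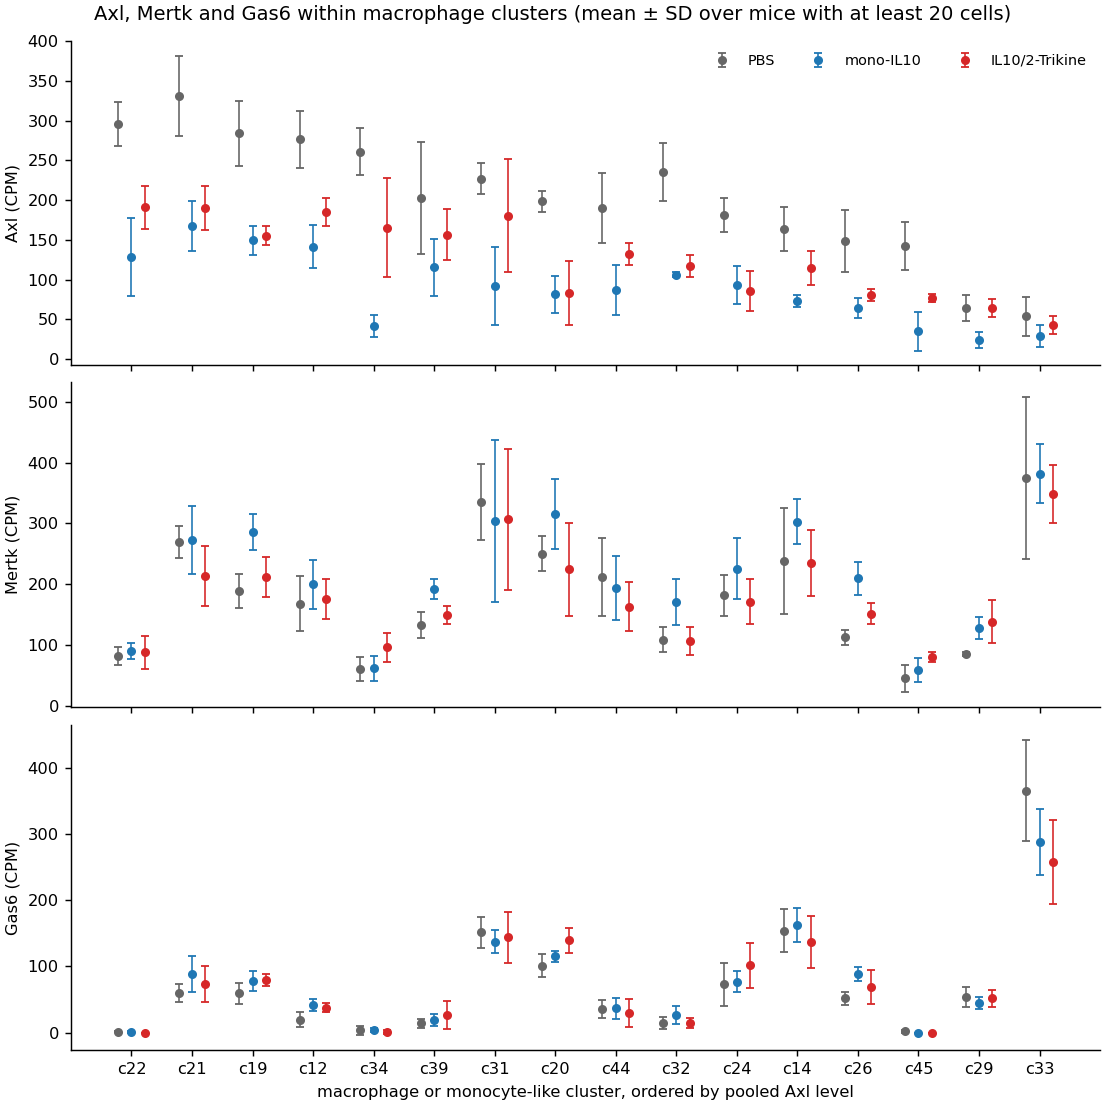
Mean Axl, Mertk and Gas6 in CPM (panels) in each of the 16 macrophage clusters on the horizontal axis, ordered by pooled Axl, with points for the mean and bars for the SD over mice with at least 20 cells, coloured by treatment. PBS Axl lies above mono-IL10 Axl along the whole order, and Gas6 peaks at 365 CPM in the cluster where PBS Axl is lowest at 53.8 CPM, at the right end.

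Markers of other lineages also moved in the macrophage sums. The summed level of 17 dendritic cell markers was 484 to 584 CPM per mouse in PBS, 184 to 322 CPM in mono-IL10 and 257 to 461 CPM in IL10/2-Trikine, below every PBS mouse in both treated groups, as Axl was. In PBS the same sum was 5036 to 6634 CPM in dendritic cells, 461 to 573 CPM in endothelial cells and 365 to 421 CPM in tumor cells. At the level seen in macrophages it is thus not particular to dendritic cells. Lymphocyte markers (12 genes) were at 48.0 to 80.6, 34.1 to 57.7 and 91.8 to 131 CPM, and tumor markers (6 genes) at 54.9 to 99.9, 51.5 to 82.1 and 86.3 to 126 CPM. The part of these cells in macrophage Axl was not tested. With the Dcstamp and Mgl2 cluster left out, macrophage Axl gave -1.28 for mono-IL10 and -0.87 for IL10/2-Trikine against PBS (edgeR adjusted p = 5.85e-09 and 2.69e-06).

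In dendritic cells, the class in which a fall of Axl was part of the choice of these genes, Axl was lower in both treated groups, in few cells. PBS mice had 77.4, 46.6, 80.5, 56.8 and 50.7 CPM. The mono-IL10 mice had 29.8, 3.27, 24.8, 0 and 14.6 CPM, and the IL10/2-Trikine mice 136, 12.4, 0, 27.3 and 0 CPM, the 136 CPM coming from 9 cells. All mono-IL10 mice were below all PBS mice, and the IL10/2-Trikine mice spanned the PBS range. These values rest on 94, 17 and 6 Axl UMIs in 234, 122 and 72 cells assigned to a mouse, where 3 UMIs is the one-sided 95% upper limit that a count of 0 allows. Over all dendritic cells of a library, Axl was 52.2 CPM in PBS (95% exact Poisson interval 43.4 to 62.2), 14.7 CPM in mono-IL10 (9.10 to 22.5) and 17.4 CPM in IL10/2-Trikine (7.52 to 34.3), intervals that cover counting error only. The share of dendritic cells with an Axl UMI was 19.6%, 7.74% and 4.20% at median depths of 5303, 7742.5 and 2962 UMIs, and 11.6%, 1.28% and 2.99% at 3000 UMIs, from 38 of 327, 2 of 156 and 2 of 67 cells. At that depth the T cell shares given above rest on 10 of 108, 13 of 462 and 1 of 29 cells, and NK cells had 1.44%, 0.351% and 4.67%. The PBS dendritic share was above both, but its gap to the PBS T cell share is small for 10 positive T cells and is not read. The mono-IL10 share lay between them and the IL10/2-Trikine share was below both, with too few cells in the treated groups to read an order.

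Fitted log2 differences of dendritic Axl were -2.04 ± 0.50 for mono-IL10 and -2.41 ± 1.30 for IL10/2-Trikine against PBS, given with no test, where 0.327% and 0.0860% of all genes were called. Only 5 PBS, 3 mono-IL10 and 1 IL10/2-Trikine mice reached the 20 cells needed for that fit, so the IL10/2-Trikine value rests on 1 mouse, and without mono-IL10 mouse 1 the mono-IL10 value was -4.54. In that 1 IL10/2-Trikine mouse the summed neutrophil, mast cell and B cell markers were 1900, 546 and 174 CPM. The PBS mice had 111 to 545, 73.3 to 129 and 0 to 7.74 CPM. Its lymphocyte, macrophage, fibroblast, tumor and endothelial markers lay within the PBS ranges. The mean level over mice with at least 10 cells was 62.4 ± 15.6, 14.5 ± 15.03 and 9.92 ± 12.97 CPM in the 3 groups (SD, n = 5, 4 and 4). With the mice of fewer cells included, among them the one at 136 CPM, the treated means were 14.5 ± 13.01 CPM in mono-IL10 and 35.2 ± 57.7 CPM in IL10/2-Trikine (SD, n = 5 each). The means of the 3 groups were 89.7 ± 11.9, 17.2 ± 12.4 and 35.1 ± 27.4 CPM when cells were grouped by another clustering, so both treated means stayed below PBS but the order of the treated groups changed with the mice and cells counted. The mix of subsets averaged over mice also differed, with cDC1-like cells at 29.0%, 26.6% and 12.5% of dendritic cells. The cDC2-like cells were at 30.3%, 33.7% and 43.3% and mature cells at 40.6%, 39.7% and 44.2%. The IL10/2-Trikine shares rest on 9 to 24 cells per mouse. Over all dendritic cells, hashtag-negative cells included, there were 135, 53 and 37 cDC1-like, 140, 54 and 53 cDC2-like and 108, 61 and 53 mature cells. Counted that way, the cDC1-like and cDC2-like shares differed less between groups. The part of the subset mix in dendritic Axl was not tested. Of the cells in the split of dendritic clusters, 59.5%, 68.6% and 71.7% stayed out of the class, because their cluster had a low subset score, a macrophage score above 0.25 or leading genes of plasmacytoid cells. Among these clusters the one led by Siglech and Ccr9 held no Axl UMI. The 4 largest held Axl at 124, 56.9 and 60.9 CPM, 76.8, 11.99 and 39.7 CPM, 199, 81.9 and 98.7 CPM, and 148, 30.4 and 50.7 CPM in PBS, mono-IL10 and IL10/2-Trikine, highest in PBS in each. The first and last of these had macrophage scores of 0.39 and 0.38 and pooled C1qa of 1383 and 1382 CPM. The part of macrophage RNA in their Axl was not tested. The others rest on 85, 14 and 15 and on 205, 42 and 16 Axl UMIs, so the order of the treated groups is not read. A small cluster led by Ccl22, Ccr7 and Plet1, of 14, 4 and 17 cells, held 74.7, 63.4 and 78.7 CPM, highest in IL10/2-Trikine. Summed macrophage markers in dendritic cells were 216 to 523 CPM in PBS, 162 to 374 CPM in mono-IL10 and 348 to 648 CPM in IL10/2-Trikine, highest in the mouse with 136 CPM of Axl, and the part of macrophage RNA in dendritic Axl was not tested. The other members were near 0 there, with 13, 3 and 0 Mertk UMIs, 6, 2 and 0 Gas6 UMIs, 6, 4 and 3 Pros1 UMIs in the 3 groups, and no Tyro3 UMI.

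Tumor cells carried Axl and Pros1 in every mouse. Tumor Axl was 75.6, 73.8, 91.6, 80.2 and 87.5 CPM in PBS, 71.2, 72.1, 61.0, 64.3 and 77.1 CPM in mono-IL10, and 81.0, 80.1, 87.9, 81.1 and 87.0 CPM in IL10/2-Trikine. The IL10/2-Trikine mice were all above the mono-IL10 mice, and PBS overlapped both. By edgeR over 15438 genes the log2 fold change was 0.18 ± 0.06 for IL10/2-Trikine against mono-IL10 (adjusted p = 0.0391), where 35.5% of all genes were called, -0.13 ± 0.06 for mono-IL10 against PBS (adjusted p = 0.238) and 0.06 ± 0.06 for IL10/2-Trikine against PBS (adjusted p = 0.594). The call was lost without mono-IL10 mouse 3 or 4 (adjusted p = 0.0705 and 0.0654), without IL10/2-Trikine mouse 3 or 5 (0.0796 and 0.0628), with another clustering (0.151), with no filter on low counts (0.0560) and without clusters that carried C1qa (0.1003). The mix of tumor clusters differed between groups: 2 clusters with pooled Axl of 53.8 and 59.6 CPM held 15.5% and 12.4% of mono-IL10 tumor cells, 9.12% and 7.02% of PBS and 7.60% and 8.56% of IL10/2-Trikine, and a cluster at 85.6 CPM held 4.80%, 8.48% and 15.2% of them. The shares of the clusters with the lowest and highest Axl, at 41.2 and 123 CPM, were 8.68% and 9.74% in mono-IL10, 10.4% and 8.28% in PBS and 13.5% and 5.16% in IL10/2-Trikine. The part of this mix in tumor Axl was not tested. With library totals in place of TMM scaling, mono-IL10 against PBS was -0.24 (adjusted p = 0.0196). Pros1 was 91.3 to 104, 87.5 to 100 and 94.3 to 107 CPM in PBS, mono-IL10 and IL10/2-Trikine, and no difference passed the test (0.02 to 0.09 on the log2 scale, adjusted p of 0.180 to 0.772).

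Macrophage and tumor Axl were also set side by side in the same mice, as a description with no test, since the ratio was chosen after both were seen. The ratio of macrophage to tumor Axl averaged 2.93 for PBS, 1.30 for mono-IL10 and 1.51 for IL10/2-Trikine (n = 5 mice each). Against PBS it differed by -1.19 for mono-IL10 and -0.96 for IL10/2-Trikine on the log2 scale, and between the treated groups by 0.23. For Pros1 the ratio averaged 0.262, 0.295 and 0.314, with log2 differences of 0.08 to 0.28.

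Tumor Gas6 and Mertk were low, and the Gas6 call against PBS was kept in 11 of 24 alternatives. Gas6 was 0.936, 0.771, 0.630, 0.792 and 0.892 CPM in PBS, 1.43, 0.323, 0.619, 0.566 and 0.414 CPM in mono-IL10, and 6.32, 1.56, 1.13, 0.916 and 1.46 CPM in IL10/2-Trikine. Apart from IL10/2-Trikine mouse 1 no value was above the upper end of the T and NK cell interval, 2.15 CPM, so these levels are at or below that background. The edgeR log2 fold change was 1.42 ± 0.49 for IL10/2-Trikine against PBS (adjusted p = 0.0475, where 21.7% of genes were called) and 1.59 ± 0.50 for IL10/2-Trikine against mono-IL10 (adjusted p = 0.0205). Without IL10/2-Trikine mouse 1 these became 0.70 (adjusted p = 0.145) and 0.88 (adjusted p = 0.0532), and the first call was also lost when each PBS mouse in turn was left out (adjusted p = 0.0690 to 0.0976) and the second without mono-IL10 mouse 5 (0.0554). In tumor cells of that mouse the summed macrophage markers were 459 CPM, against 87.0 to 141 CPM in the other IL10/2-Trikine mice, 89.4 to 203 CPM in PBS and 46.9 to 89.1 CPM in mono-IL10. Without the tumor clusters carrying C1qa, Gas6 gave 1.16 against PBS (edgeR adjusted p = 0.0469) and 1.56 against mono-IL10 (adjusted p = 0.0084). Mertk followed the same mouse, at 11.3 CPM against 2.38 to 3.05 CPM in the rest of its group, and IL10/2-Trikine against mono-IL10 gave 0.89 ± 0.40 (edgeR adjusted p = 0.0990, DESeq2 adjusted p = 0.0479). Without the clusters carrying C1qa that Mertk difference was -0.18 (edgeR adjusted p = 0.836). In mono-IL10 against PBS, where 9.50% of genes were called, edgeR and DESeq2 called none of the 5 members, and none had an unadjusted p under 0.05. Tyro3 was 2.70 to 3.78, 2.51 to 3.31 and 2.62 to 3.91 CPM, with log2 differences of 0.05, -0.17 and 0.22 for IL10/2-Trikine against PBS, mono-IL10 against PBS and IL10/2-Trikine against mono-IL10 (adjusted p = 0.819, 0.385 and 0.162).

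Endothelial cells, a known source of protein S, held the most Pros1 of the 4 classes. Pros1 was 138, 137, 136, 114 and 167 CPM in PBS, 141, 133, 135, 163 and 125 CPM in mono-IL10, and 208, 161, 152, 159 and 131 CPM in IL10/2-Trikine, with all groups overlapping. Mertk was 21.5, 13.5, 38.4, 22.2 and 14.3 CPM in PBS, 28.3, 22.2, 40.1, 11.4 and 28.5 CPM in mono-IL10, and 35.8, 6.26, 4.97, 5.79 and 15.7 CPM in IL10/2-Trikine, where 3 of 5 mice were below every mouse of the other groups. These 2 were the members with enough counts for the test, and edgeR called neither in any comparison, where 0.643%, 0% and 0.145% of 6218 genes were called in IL10/2-Trikine against PBS, mono-IL10 against PBS and IL10/2-Trikine against mono-IL10. The 0 calls of mono-IL10 against PBS stood beside 481 genes at an unadjusted p under 0.05 and 41 calls by DESeq2. The log2 differences of Pros1 were 0.24 ± 0.13, 0.05 and 0.19, and those of Mertk -0.86 ± 0.48, 0.23 ± 0.40 and -1.09 ± 0.51, the last at an edgeR adjusted p of 0.440 and an unadjusted p of 0.0457. Axl was 1.59 to 19.9 CPM and Gas6 0 to 21.5 CPM per mouse. With 13 to 82 endothelial cells per mouse, differences of the size seen for macrophage Axl could not be tested for these 2 genes at this depth.

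Genes of the pathway around the receptors changed in macrophages in part, read from lists chosen with earlier results known and against medians over all genes of -0.005 to 0.006. Of 24 other phosphatidylserine receptors and bridging molecules, 18 were tested. In mono-IL10 against PBS, 8 rose and 4 fell, with a median log2 fold change of 0.12. In IL10/2-Trikine against PBS, 2 rose and 2 fell (median 0.02), and against mono-IL10 the counts were the same (median -0.11). Of the 12338 genes tested, 1656 rose and 1608 fell in mono-IL10 against PBS, 1132 and 1129 in IL10/2-Trikine against PBS, and 766 and 945 in IL10/2-Trikine against mono-IL10. Cd36, a scavenger receptor for lipids and dying cells, fell by 2.21 on the log2 scale in mono-IL10 and was higher in IL10/2-Trikine than in mono-IL10 by 1.62. Havcr2, the phosphatidylserine receptor TIM-3, fell by 0.75 in mono-IL10 and by 1.04 in IL10/2-Trikine against PBS (edgeR adjusted p = 1.25e-05 and 3.13e-06). Stab1 and C1qa rose in IL10/2-Trikine by 0.34 and 0.28, and Mfge8, another bridging protein, was higher in IL10/2-Trikine than in mono-IL10 by 0.74.

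Of 13 engulfment genes tested, 2 were higher and 4 lower in mono-IL10 against PBS, where 26.5% of all genes were called, and 1 went in each direction in the other comparisons, where 18.3% and 13.9% were called. Elmo1, which activates Rac with Dock proteins, fell by 0.64 in mono-IL10 and by 0.47 in IL10/2-Trikine, and Dock1 fell by 0.47 in mono-IL10. Among 16 genes of lipid handling, 4 rose and 4 fell in mono-IL10 against PBS, 2 rose and 1 fell in IL10/2-Trikine against PBS, and 1 was higher and 3 lower in IL10/2-Trikine against mono-IL10. Lpl, lipoprotein lipase, fell by 2.31, Pparg, a lipid-sensing nuclear receptor, fell by 1.15, and Pltp rose by 0.53. Lpl was higher in IL10/2-Trikine than in mono-IL10 by 2.41. Of 9 tested genes for the display of phosphatidylserine and its opposite signals, 4 rose and 1 fell in mono-IL10 against PBS, 2 and 1 in IL10/2-Trikine against PBS, and 2 were lower in IL10/2-Trikine against mono-IL10. Cd47, the signal against engulfment, rose by 0.31 in mono-IL10 and 0.28 in IL10/2-Trikine, Atp11a, a flippase, rose by 0.71 and 0.34, and Qpct, a glutaminyl cyclase, fell by 1.89 and 1.34.

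Vkorc1, which recycles the vitamin K that Gas6 and Pros1 need for their maturation, rose in macrophages by 0.57 in mono-IL10 and 0.50 in IL10/2-Trikine against PBS, and in tumor cells by 0.71 and 0.74. It was 1 of 6 genes of maturation and shedding, of which 1 rose and 1 fell in each treatment against PBS in macrophages and none was called between the treatments by edgeR or DESeq2 (0 at an unadjusted p under 0.05). Adam17, the protease that sheds Axl and Mertk, fell by 0.15 and 0.22. Of 10 tested signal partners and feedback genes, 5 rose and none fell in mono-IL10 against PBS (median 0.30), 2 rose and 2 fell in IL10/2-Trikine against PBS, and 6 were lower and none higher in IL10/2-Trikine against mono-IL10 (median -0.25). The ubiquitin ligase Cblb rose by 1.12 in mono-IL10 and 1.22 in IL10/2-Trikine against PBS. Socs3, a feedback inhibitor of cytokine signals, rose by 0.56 in mono-IL10 against PBS and gave -0.65 in IL10/2-Trikine against mono-IL10. Of 12 interferon-induced genes, 1 rose and 2 fell in IL10/2-Trikine against PBS (Ifit1 1.11, Isg15 -0.71, Bst2 -0.26), 2 fell in mono-IL10 against PBS (Oas1a -0.30, Bst2 -0.25), and edgeR and DESeq2 called none between the treatments (1 at an unadjusted p under 0.05). Over all macrophage genes 18.3% were called in IL10/2-Trikine against PBS, 26.5% in mono-IL10 against PBS and 13.9% between the treatments, and the interferon-induced shares of 3, 2 and 0 of 12 are near or below these.

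In tumor cells the most calls over all genes were between the treated groups, where 35.5% of genes passed and 2564 of all genes were higher and 2909 lower. There 8 of 12 interferon-induced genes were higher in IL10/2-Trikine than in mono-IL10 and none lower, led by Ifit1 (1.74), Mx1 (0.99) and Ifit3 (0.96), and Ifit1 and Mx1 also rose against PBS (1.74 and 0.74). Of 18 tested phosphatidylserine receptors and bridging molecules 8 were higher and 3 lower, and the 4 largest were Cd36 (2.43), C1qc (1.73), C1qa (1.68) and C1qb (1.61), of which the complement genes are defining markers of macrophages. Macrophage markers in tumor cells differed between these groups as given above for tumor Gas6. The engulfment and lipid lists each had 6 genes higher and 2 lower there, the phosphatidylserine display list 2 and 1, the maturation list 3 and 1, and the signal partners 1 and 4. Against PBS, where 21.7% of all genes passed in IL10/2-Trikine and 9.50% in mono-IL10, the higher and lower counts were in IL10/2-Trikine 1 and 2 for the receptors, 0 and 3 for engulfment, 0 and 2 for lipids, 2 and 2 for display, 2 and 1 for maturation and 1 and 1 for signal partners, and in mono-IL10 2 and 3, 0 and 1, 0 and 1, 0 and 2, 1 and 0, and 3 and 0, with 0 and 0 for interferon-induced genes by edgeR (0 by DESeq2 and 0 at an unadjusted p under 0.05). Of the 79 list calls in macrophages and 79 in tumor cells, 77 each were kept under DESeq2 and 66 and 70 under library totals, and none reversed under either. In endothelial cells edgeR called no gene of the 7 lists in any comparison, where 0 to 3 genes of a list had an unadjusted p under 0.05 and DESeq2 called 0 or 1.

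Over the 63 clusters of at least 50 cells, the genes most like each member in log2(CPM + 1) are a description of shared cell types and carry no test, since the clusters share libraries and depth. Among the 5 genes nearest to Axl were Igsf8 (Pearson r = 0.83), Scpep1 (0.80), Mcub (0.79) and Sh3pxd2b (0.79). Among those nearest to Mertk were Hebp1 and Lrp12 (0.96 each), Dennd1a and Abca9 (0.95 each). Gas6 was nearest to Tmem26, Tmem86a, Ccl8 and Col14a1 (0.93 each) and Ctsf (0.92), and Pros1 to Plscr3, Wwc2, Lman1, Hdlbp and Calu (0.92 each). Among the members, Mertk and Gas6 were the closest pair (0.84), Tyro3 and Pros1 had 0.61, Axl and Mertk 0.50, Axl and Pros1 0.35, and Axl and Gas6 0.30. The lowest were Mertk and Tyro3 (-0.53), Tyro3 and Gas6 (-0.34) and Mertk and Pros1 (-0.13). Tyro3 was too low to be compared with all genes.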

How the data were processed

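The data were droplet 5′ single-cell RNA libraries of tumors from PBS, mono-IL10 and IL10/2-Trikine mice, 1 library per treatment with 5 hashtags each. The deposited values were raw UMI counts, which the authors made with Cell Ranger 9.0.1 on GRCm39, and submitters' notes also name Seurat 5.1.0 and DESeq2 1.46.0. The authors' deposited annotation of T and NK cells (library, mouse and cluster names, no measured unit) was used to check mouse calls: of 2084 cells, 2082 were found and 96.5% had the same mouse, with 0 assigned to another mouse. Annotations of 7858 cells of another group were not used here.

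From 130444 barcodes, those with fewer than 1000 genes or over 10% mitochondrial UMIs were dropped, which left 104682. Mice were called with HTODemux (Seurat 5.3.0, quantile 0.99): 12.1%, 8.50% and 12.2% of cells were hashtag doublets in PBS, mono-IL10 and IL10/2-Trikine, and 20.3%, 17.9% and 32.1% had no hashtag. Doublets were removed, doublets within 1 mouse cannot be seen this way, and 92851 cells were clustered with scanpy 1.11.5 and scikit-learn 1.9.0 (counts scaled to 10000 per cell, 2000 variable genes, 40 principal components, 60 k-means clusters, 3 starts). A cluster was named from at least 3 detected markers, a marker score of at least 0.25 and scores of other lineages of at most 0.25 of the best score. Macrophages and conventional and mature dendritic cells counted as the same lineage here, as did T and NK cells. The 4 clusters with a dendritic score of at least 0.25 (1986 cells) were split into 10. Macrophage clusters with a lower dendritic score stayed in the macrophage class. A cluster of the split entered the dendritic class with a subset score of at least 0.4 outside plasmacytoid markers and macrophage and other lineage scores of at most 0.25. The clustering was run in several numerical versions, and the last was kept because it gave the same cells in every run. Versions with 10 starts and with looser dendritic naming were tried after the dendritic class was seen to be small and are given as alternatives only.

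UMI counts were summed per mouse and class over mice with at least 20 cells (10 for endothelial cells and for dendritic levels) and tested by edgeR 4.0.16 (R 4.3.3) quasi-likelihood fits of all 3 groups with TMM scaling and edgeR's filter on low counts, with Benjamini-Hochberg adjustment over all genes and a threshold of 0.05. Standard deviations are over mice, and intervals are 95% exact Poisson intervals that cover counting error only. The fitting was tested on simulated data.

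The 5 members, the gene lists and the tests were chosen with earlier results of these data known. The ratios and the clusters left out for markers of other lineages were chosen after values were seen. Besides the members, up to 4 genes of each list past the threshold with the largest change per class and comparison could be named, and for each member the 5 genes nearest in correlation over clusters of at least 50 cells, among genes of at least 10 CPM in 3 or more clusters, of which some are not reported here. Alternatives were DESeq2 1.42.0, library totals, no filter, fits of only 2 groups, other clusterings, cells of at least 2000 genes, mixed droplets left out and each mouse left out. The lists were other phosphatidylserine receptors and bridging molecules, engulfment, lipid handling, phosphatidylserine display, maturation and shedding, signal partners and feedback, and interferon-induced genes.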

Additional observations from a re-analysis of the deposited data

Results flagged for a closer look

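Of 41 groups of 5 mice examined with Dixon's ratio (critical value 0.71), 5 had a mouse set apart from the others, and chance alone sets apart about 1 group in 20. In tumor cells, IL10/2-Trikine mouse 1 had 11.3 CPM of Mertk (156 UMIs, next mouse 3.05 CPM) and 6.32 CPM of Gas6 (87 UMIs in 1178 cells, next mouse 1.56 CPM). Also in tumor cells, mono-IL10 mouse 1 had 1.43 CPM of Gas6 (46 UMIs, next 0.619 CPM), and PBS mouse 2 had the lowest Tyro3 at 2.70 CPM (next 3.50 CPM). In endothelial cells, mono-IL10 mouse 3 had 0 Gas6 UMIs in 13 cells, where the next mouse had 12.5 CPM. In both mice with high tumor Gas6 the summed macrophage markers of the tumor cells were the highest of their group, at 459 CPM and 89.1 CPM. Yet the PBS mice, at 89.4 to 203 CPM of these markers, all had less tumor Gas6 than mono-IL10 mouse 1. The part of macrophage RNA in tumor Gas6 was not tested.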

How the results depend on the processing

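The macrophage Axl values kept their direction and their call under every alternative to the whole class that was run, with ranges over left-out mice of -0.97 to -0.89 for IL10/2-Trikine against PBS, -1.39 to -1.27 for mono-IL10 against PBS and 0.34 to 0.46 between the treatments. In the monocyte cluster alone IL10/2-Trikine against PBS (-0.82, adjusted p = 0.584) and against mono-IL10 (1.31, adjusted p = 0.396) were not called by edgeR. Among member values, 304 kept direction and call under alternatives other than leaving out a mouse, 12 lost the call, 6 gained it and 14 reversed. Over left-out mice 492 kept both, 16 lost the call, 5 gained it, 6 reversed and 1 moved. Dendritic Axl, which has no call, was counted among the kept values where its direction held and its shift was small against its standard error. It was counted as moved where the shift was larger. Dendritic Axl in IL10/2-Trikine against mono-IL10 reversed to 0.84 with 30 components and 40 clusters, 0.24 with 10 starts, 0.074 with looser naming, 0.67 with 10 starts and looser naming, and 2.13 without mono-IL10 mouse 1 (range over left-out mice -0.84 to 2.13). The only IL10/2-Trikine mouse of the reported dendritic fit could not be left out, so that range does not cover it. Macrophage Mertk reversed to -0.0030 in IL10/2-Trikine against PBS with cells of at least 2000 genes and to 0.42 in IL10/2-Trikine against mono-IL10 in the monocyte cluster alone. Tumor Mertk reversed to -0.081 (IL10/2-Trikine against PBS) and -0.0079 (the treated groups) with 30 components and 40 clusters, to -0.12, 0.060 (mono-IL10 against PBS) and -0.18 without the clusters carrying C1qa, and to -0.42 without IL10/2-Trikine mouse 1 (range -0.42 to 0.34 for IL10/2-Trikine against PBS). Over left-out mice tumor Tyro3 in IL10/2-Trikine against PBS ranged from -0.016 to 0.13, Gas6 in mono-IL10 against PBS from -0.64 to 0.0072 and Pros1 between the treated groups from -0.0030 to 0.061. Pros1 in mono-IL10 against PBS reversed with library totals, to -0.044 in tumor and -0.015 in endothelial cells, and endothelial Mertk in that comparison to -0.10 with 10 starts. Apart from dendritic Axl, given with no test, edgeR called none of these under the reported settings, while tumor Mertk between the treated groups was called by DESeq2 (adjusted p = 0.0479). The cause was not tested.

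Counts of called genes moved by over 1.5 times as follows, in the order IL10/2-Trikine against PBS, mono-IL10 against PBS, IL10/2-Trikine against mono-IL10. In macrophages (2261, 3264 and 1711) the first was 1405 with cells of at least 2000 genes, and the monocyte cluster alone gave 10, 141 and 0 (fewer cells). In dendritic cells (5, 19 and 7) they were 37, 151 and 27 with no filter and 11, 116 and 107 with 30 components and 40 clusters. The last 2 were 62 and 30 with 10 starts and 123 and 89 with looser naming, and both changes gave 15, 159 and 78. In tumor cells mono-IL10 against PBS (1466) was 3569 with library totals, 687 with 30 components and 40 clusters and 656 without the clusters carrying C1qa. In endothelial cells (40, 0 and 9) they were 87, 41 and 63 by DESeq2 and 128, 85 and 94 with no filter, mono-IL10 against PBS was 2 with 30 components and 40 clusters, and the last was 1 with only 2 groups, 23 with 30 components and 40 clusters, and 39 with 10 starts. Leaving out a mouse gave 1793 to 2301, 2651 to 3352 and 1122 to 1752 in macrophages, the lowest of the last without IL10/2-Trikine mouse 1. It gave 2698 to 3316, 819 to 1942 and 4816 to 5416 in tumor cells, and 20 to 49, 0 to 1 and 1 to 16 in endothelial cells. In dendritic cells mono-IL10 against PBS gave 6 to 26. The ranges of the IL10/2-Trikine comparisons there are not given, since their only IL10/2-Trikine mouse could not be left out. For mono-IL10 against PBS in tumor cells the low values were 933 and 819 without PBS mouse 1 and 4, and 941 and 887 without mono-IL10 mouse 2 and 3.

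With library totals in place of TMM, macrophage calls in mono-IL10 against PBS split into 1001 higher and 2397 lower (1656 and 1608 with TMM), and in IL10/2-Trikine against mono-IL10 into 1438 and 507 (766 and 945), a shift of the median gene to 0.10. In tumor cells the splits were 290 and 3279 (890 and 576, median -0.12) and 4095 and 1651 (2564 and 2909, median 0.10). Pros1 in endothelial cells averaged 177 CPM with cells thinned to 3000 UMIs, against 147 CPM. No paired analysis was possible because hashtag numbers name mice within a library and pair none across libraries. Dendritic fits in cells of at least 2000 genes, without mixed droplets, without clusters carrying C1qa and in single subsets were not made, since too few mice of a group had 20 cells. The reported dendritic fit, with 1 IL10/2-Trikine mouse, was not held to that minimum and would not have met it. Tyro3 in macrophages and Axl and Gas6 in endothelial cells were too low to test at this depth.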
